A study of Homo sapiens with 32 samples.

Results

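RNA levels were compared between unstressed HEK293T cells carrying the phosphomimetic form of eIF3d and cells carrying the wild-type protein, over all genes with a mean of at least 1 RPKM across the 8 RNA-Seq libraries. This took 9637 of the 58721 genes in the table. HEK293T is an immortalised human embryonic kidney cell line. Wild-type libraries are called WT here. DD libraries came from cells whose eIF3d has aspartate in place of 2 neighbouring serines (S528D, S529D), a change that mimics permanent phosphorylation. Each group had 2 libraries, numbered 1 and 2, and all 4 cultures had received the solvent DMSO for 16 h and no thapsigargin. The other 4 RNA-Seq libraries, WT and DD cells given 600 nM thapsigargin (Tg) for 16 h, served as a second set in which the same genes could be read. The whole series has 32 samples. How the eIF3d forms were introduced, and whether each line is 1 clone, are not given in the sources used here. Nothing in the labels says that libraries 1 and 2 came from separate cultures, so the p-values measure only the spread between these libraries, which may be technical.

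eIF3 is the large complex that brings the small ribosomal subunit to mRNA, and eIF3d is its subunit that can itself hold the 5′ cap. Phosphorylation of the eIF3d tail governs that cap contact, so the DD form stands for one fixed state of the switch. The integrated stress response (ISR) works through phosphorylation of eIF2, which slows initiation in general and favours a few mRNAs with upstream reading frames, among them the one for the transcription factor ATF4. ATF4 in turn raises genes for amino acid supply, tRNA charging and feedback on eIF2. The question put to the data is how the steady-state RNA of unstressed cells differs when eIF3d is locked in its phosphomimetic form.

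The reads behind the values numbered 7242461 and 4508486 in WT libraries 1 and 2, and 7675005 and 9741737 in DD libraries 1 and 2. The mitochondrial ribosomal RNAs took 43.8% and 34.1% of them in WT and 42.2% and 25.4% in DD, with narrow 95% Wilson intervals (43.73% to 43.8% in WT 1) that cover counting error only. In a principal component analysis of the 4 libraries, the first component held 74.4% of the variance and parted the replicate numbers, with scores of −53.1 and −50.3 for WT 1 and DD 1 against 54.4 and 49.0 for WT 2 and DD 2. The second held 18.6% and set WT 2 (35.4) against DD 2 (−37.1), with both number 1 libraries near 0. Library number thus outweighed genotype in these values, and what the numbers stand for is not given. Of 12 HEK293 markers, 6 were at 1 RPKM or more in all 4 libraries and 2 were under it in all 4, and their summed level was 55.5 to 217 RPKM in WT and 73.8 to 199 in DD. Of 20 markers of other lineages none reached 1 RPKM in all 4 libraries, 14 were under it in all 4, and 7, at 0, were not detected. Their sum was 3.37 to 36.6 RPKM in WT and 3.38 to 29.9 in DD. The high sums were those of the number 1 libraries of both genotypes, where the collagen gene COL1A1 reached 18.1 (WT) and 13.3 (DD) RPKM against 0.0904 and 0.293 in the number 2 libraries.

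No gene passed the test between DD and WT cells in DMSO. Limma called 0 of 9637 genes at an adjusted p under 0.05 (percent called 0 in each direction), and the smallest adjusted p was 1.00. At an unadjusted p under 0.05 there were 68 genes (0.706%), 36 higher (0.374%) and 32 lower (0.332%) in DD. This model has no term for the replicate number. The difference between the numbers therefore enters the SEs and p-values printed here, which do not measure the genotype difference within a number. Voom on the recovered reads also called 0, with 28 genes at an unadjusted p under 0.05. With 2 libraries against 2, an exact permutation test of a single gene cannot go below p = 0.333 (two-sided). The differences are therefore given as values, and none of them passed the threshold in this model.

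Separation of the groups was described by counts. Both DD libraries lay above both WT libraries for 1065 genes (11.1%) and below both for 453 (4.7%). A difference of 2-fold or more on the log2(RPKM + 1) scale, in 1 direction in both replicate numbers, was found for 52 genes higher (0.54%) and 33 lower (0.342%) in DD. The balance of higher and lower genes differed between scalings. The median of all genes was 0.13 higher in DD on the log2 scale, 0.03 in replicate 1 and 0.23 in replicate 2, and with median-ratio size factors the separated genes became 796 higher and 737 lower, and the 2-fold genes 36 higher and 42 lower. Scaled without mitochondrially encoded genes they were 945 higher and 399 lower, and 56 higher and 29 lower at 2-fold. With median-ratio factors the all-gene median was 0.01, so differences of groups of genes are given here relative to the all-gene median. Across the 9637 genes, the DD minus WT difference of replicate 1 had a Pearson r of 0.099 with that of replicate 2, with SDs of 0.46 and 0.71 on the log2 scale. Genes are not independent replicates, and the value is a description.

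**Figure D1:**
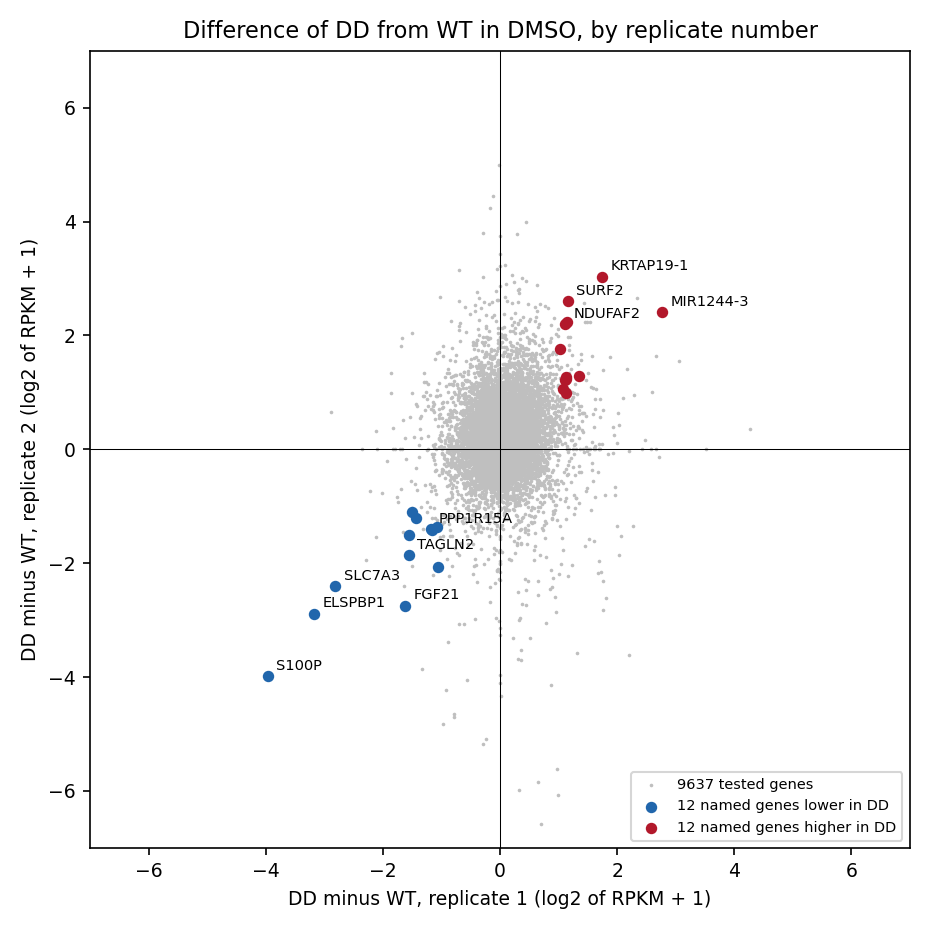
Difference of DD from WT in DMSO for each of the 9637 genes, as log2(RPKM + 1), in replicate 1 (x axis) and replicate 2 (y axis). Blue and red points are the 12 named genes lower and the 12 higher in DD. Most genes form a cloud with no diagonal (r = 0.099), and S100P, ELSPBP1, SLC7A3 and FGF21 lie far out at the lower left.

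EIF3D (ENSG00000100353.17, chr22:36510855-36529166, minus strand, protein coding) checks the level of the altered gene. Its RNA was at 68.3 and 69.6 RPKM in the WT libraries and at 37.5 and 76.6 RPKM in the DD libraries. The groups overlapped, and DD 1 was the low library. The log2 difference was −0.36 ± 0.81 (SE), −0.85 in replicate 1 and 0.14 in replicate 2. Reads of an introduced and the native EIF3D copy cannot be separated in these values, and the 2 codon changes do not show in a gene total.

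The genes that were lowest in DD cells form a short list led by S100P, ELSPBP1, SLC7A3 and FGF21. They were named by a rule: groups that do not overlap, a mean of at least 5 RPKM in DMSO, and the largest value of the smaller of the 2 within-replicate differences. These values chose the genes and support nothing further. S100P (ENSG00000163993.6, chr4:6693878-6697170, plus strand), a small calcium-binding protein of the S100 family, stood at 40.02 and 74.3 RPKM in WT and at 1.63 and 3.77 RPKM in DD. Both DD libraries were far below both WT libraries, with 16 and 47 reads against 371 and 429. The log2 difference was −3.97 ± 0.85 (SE; limma unadjusted p = 0.00091, adjusted p = 1.00), and it was −3.96 in replicate 1 and −3.98 in replicate 2. ELSPBP1 (ENSG00000169393.8, chr19:47994632-48025154), a secreted sperm-binding protein of the epididymis, was at 27.9 and 18.5 RPKM in WT and 2.202 and 1.64 in DD, a difference of −3.03 ± 0.62 (SE) on the log2 scale. Here too each DD library was lower than each WT library.

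SLC7A3 (ENSG00000165349.11, chrX:70925579-70931096), a transporter of arginine and lysine, had 11.7 and 13.4 RPKM in WT and 0.805 and 1.72 RPKM in DD, a log2 difference of −2.61 ± 0.61 (SE). FGF21 (ENSG00000105550.9, chr19:48755524-48758330), a hormone-like growth factor gene that ATF4 is known to activate, had 8.19 and 21.4 RPKM in WT and 1.98 and 2.34 in DD, a log2 difference of −2.19 ± 0.72 (SE). In both, the 2 WT values lay above the 2 DD values, and for FGF21 the WT libraries differed more from each other than the DD libraries did. PPP1R15A (GADD34), which brings protein phosphatase 1 to eIF2 and so ends the ISR, was at 10.6 and 19.6 RPKM in WT and 4.09 and 6.80 in DD, a log2 difference of −1.29 ± 0.75 (SE). Its 4 values kept the order DD 1, DD 2, WT 1, WT 2.

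TAGLN2, a relative of the actin-binding protein transgelin, was the most abundant of the 12 in RPKM, with 104 and 176 in WT and 34.7 and 47.5 in DD. G0S2, an inhibitor of the triglyceride lipase ATGL, had 51.7 and 87.9 RPKM in WT and 17.6 and 40.5 in DD. KLF10, a zinc finger transcription factor induced by TGF-beta, had 11.97 and 6.21 RPKM in WT and 5.18 and 1.80 in DD. The groups stood apart in these as well, but by a narrow gap in KLF10 (6.21 against 5.18). GDAP1L1, TMEM59L and the non-coding LINC01605 and NHSL1-AS1 complete the 12. For these 12 the unadjusted p ran from 0.000698 (ELSPBP1) to 0.202 (G0S2), and the adjusted p was 1.00 for all. The first gene outside was VAMP8, whose smaller difference was −1.04 against −1.05 for GDAP1L1, the last inside.

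RBP7 and PNPLA4 were near 0 in DD cells and were named for their small p rather than their level. RBP7 (ENSG00000162444.11, chr1:9997228-10016021), a cellular retinol-binding protein, had 4.65 and 2.83 RPKM in WT, from 29 and 11 reads, and 0.151 and 0 RPKM in DD, from 1 and 0 reads. Its unadjusted p of 0.000553 was the smallest of all genes. The ratio of DD to WT was 0.0325 in replicate 1 (95% interval of the counts 0.000797 to 0.196), and in replicate 2 its upper limit was 0.184. PNPLA4 (ENSG00000006757.11, chrX:7898247-7927724), a lipase that can also act on retinol esters, had 3.05 and 4.45 RPKM in WT and 0.303 and 0.0298 in DD, with 76 and 69 reads against 8 and 1.

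**Figure D2:**
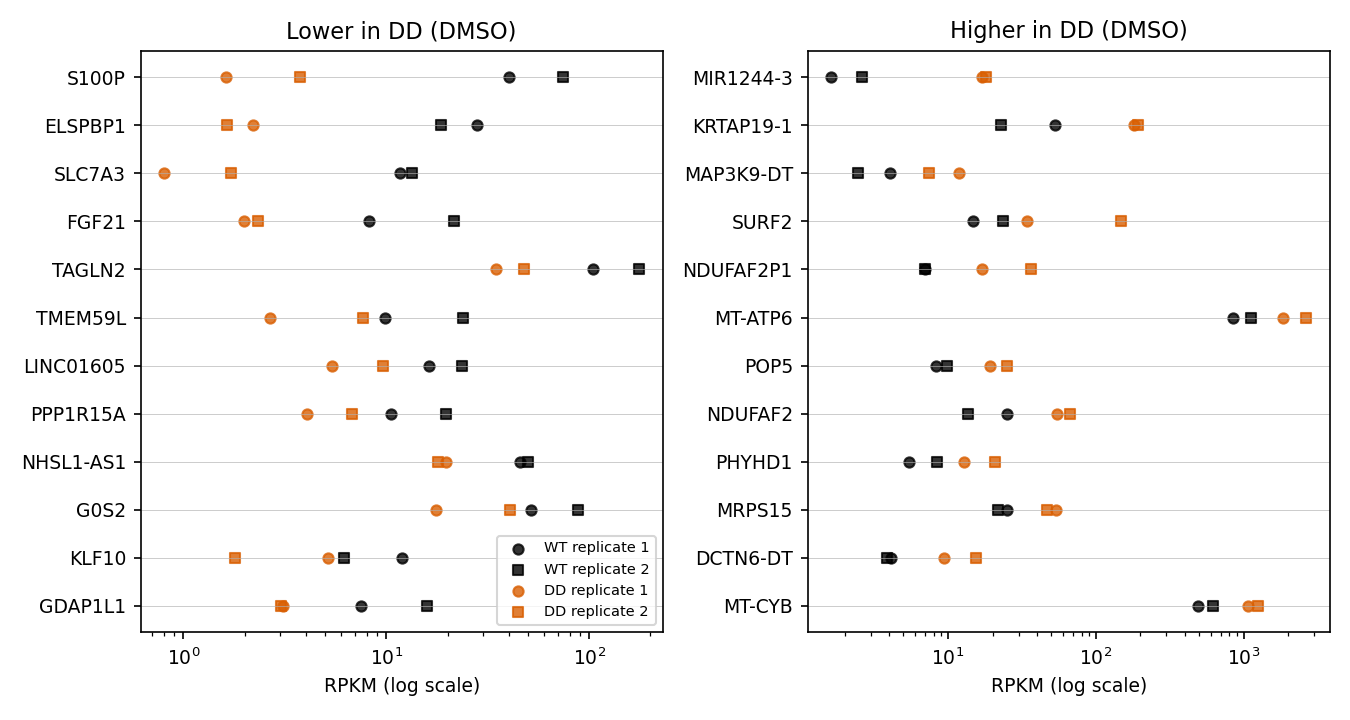
RPKM (log axis) of the 12 genes lower (left) and 12 genes higher (right) in DD, in the 4 DMSO libraries. Black points are WT, orange points DD, circles replicate 1 and squares replicate 2. In every row the 2 black and the 2 orange points do not interleave, as the naming rule required, and the widest gap on the left is that of S100P.

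The promoters of the lower genes were searched for the C/EBP-ATF response element, the DNA site through which ATF4 acts, since FGF21 and PPP1R15A belong to its known programme. The motif was written TGATGNAA and searched on both strands in the 250 bases before each gene's start, in RefSeq sequence of GRCh38.p14. Of the 12 lower genes 9 had a promoter in the RefSeq table, and 3 of these held the motif. PPP1R15A was among the 9 and did not hold it. The motif was in 0 of 6 of the higher genes, in 3.14% of all 35116 promoters and in 1.32% of the 6830 of tested genes. Among gene lists it was in 2 of 14 ISR transcription factors and feedback genes and in 0 of 10 amino acid transporters. Of the enzymes of serine, asparagine and one-carbon metabolism, 2 of 8 held it. The 3 windows are shown with that of CHAC1, an ATF4 target that degrades glutathione, for comparison. Each is 30 bases of the gene's strand, 5′ to 3′, with the match in capitals. They lie at chr4:6693744-6693773 for S100P, chr19:48755459-48755488 for FGF21, chr6:138691541-138691570 for NHSL1-AS1 and chr15:40953251-40953280 for CHAC1, all on the plus strand.
S100P: acaacgatgcaTTTCATCAgaactgagcac
FGF21: aaacaccaggaTTGCATCAgggaggaggag
NHSL1-AS1: ctaggcgtgtgTTACATCAacatctcccct
CHAC1: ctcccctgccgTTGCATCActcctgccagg
In these 4 the match is to the motif on the opposite strand, and it begins 123 bases before the start in S100P, 54 in FGF21, 116 in NHSL1-AS1 and 209 in CHAC1. CHAC1 RNA was at 9.53 and 29.3 RPKM in WT and 8.23 and 11.4 in DD, so that its groups overlapped. A match is a description of letters and shows no binding. FGF21 prompted the search and is itself among the 3 lower genes that held the motif. The 12 genes were chosen by their DMSO values. Their share is therefore a description, and a part of ATF4 in their levels was not tested.

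Under Tg, libraries that had no part in choosing the genes, the 12 lower genes were again mostly below WT. Of the 12, 10 were lower in DD in replicate 1, where 38.6% of all genes were, and 9 were lower in both replicate numbers, where 11% were. Groups stood apart for 9 of the 12, and 6.06% of all genes had both DD Tg libraries below both WT Tg libraries. The sizes were unequal. Their median difference was −0.39 on the log2 scale in replicate 1 and −2.78 in replicate 2. The second DD Tg library stands apart from the other 7, with 57.3% of its reads in the mitochondrial ribosomal RNAs against 25.4% to 49.8% in the rest, and its part in the replicate 2 values was not tested. S100P under Tg had 6.11 and 21.8 RPKM in WT and 3.54 and 0.121 in DD, SLC7A3 had 6.21 and 11.8 against 2.35 and 0.274, and FGF21 had 2.79 and 11.8 against 1.347 and 0.119. In WT cells S100P was itself lower in Tg than in DMSO, and the replicate 1 gap under Tg was −0.65 on the log2 scale. RBP7, chosen by its p, had 3.98 and 2.83 RPKM in WT and 0.114 and 0 in DD under Tg, and PNPLA4 had 2.63 and 3.65 against 0.372 and 1.01. The p that chose RBP7 and PNPLA4 took its spread from all 8 libraries, so for them the Tg libraries had a part in the choice. LINC01605 was higher in DD in replicate 1 under Tg, with 14.9 RPKM in DD against 7.43 in WT. Limma called 0 genes between DD and WT under Tg (82 at an unadjusted p under 0.05, 0.851%).

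The genes that stood higher in DD cells included KRTAP19-1, NDUFAF2 and the mitochondrial transcripts MT-ATP6 and MT-CYB. They were named by the same rule, so these values too are a description. KRTAP19-1, a hair keratin-associated protein gene on chromosome 21, had 53.0 and 22.7 RPKM in WT and 180 and 193 in DD, a log2 difference of 2.39 ± 1.23 (SE). NDUFAF2 (ENSG00000164182.10, chr5:60945205-61153026), an assembly factor of respiratory complex I, had 25.0 and 13.7 RPKM in WT and 55.0 and 66.6 in DD, a log2 difference of 1.65 ± 0.70 (SE; limma unadjusted p = 0.0398, adjusted p = 1.00). Both DD libraries were above both WT libraries in each. The pseudogene NDUFAF2P1 had the same order of libraries as a group, at 7.04 and 6.96 RPKM in WT and 16.9 and 36.6 in DD, and since reads of near-identical copies can be split between them, its own level is uncertain.

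MRPS15, a protein of the small mitochondrial ribosomal subunit, had 25.1 and 21.9 RPKM in WT and 53.9 and 46.9 in DD. POP5, a subunit of the tRNA-processing enzymes RNase P and RNase MRP, had 8.32 and 9.80 RPKM in WT and 19.2 and 25.1 in DD. The mitochondrial transcripts MT-ATP6 (ATP synthase) and MT-CYB (cytochrome b of complex III) were at 839 and 1123, and 492 and 623, RPKM in WT, against 1838 and 2634, and 1073 and 1245, in DD. In these 4 the lowest DD library exceeded the highest WT library. SURF2 had 14.8 and 23.5 RPKM in WT and 34.3 and 147 in DD, a difference of 1.88 ± 0.93 (SE) on the log2 scale with DD 2 far above the other 3 libraries. MIR1244-3 headed the list by size at 1.62 and 2.61 against 16.9 and 18.1 RPKM, but from 1 and 1 reads in WT and 11 and 15 in DD. Its ratio was 10.4 in replicate 1 with a counting interval from 1.51 to 447, and the locus has near-identical copies. PHYHD1, MAP3K9-DT and DCTN6-DT complete the 12, and CPNE1, with a smaller difference of 0.997, was the first outside. The RNA-Seq kit does not mark strand, so reads of divergent and antisense transcripts such as MAP3K9-DT, DCTN6-DT and NHSL1-AS1 cannot be told from those of a gene they overlap.

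Under Tg the higher genes were less alike between the replicate numbers. In replicate 1, 11 of 12 were higher in DD, where 61.1% of all genes were, and in replicate 2, 5 of 12 were. They were higher in both for 4 genes, KRTAP19-1, NDUFAF2P1, NDUFAF2 and DCTN6-DT, against 20.1% of all genes, and the groups stood apart for 2 of the 12 (10.2% of all genes had both DD libraries above). Median differences were 0.80 and −0.07 on the log2 scale. NDUFAF2 had 28.5 and 29.99 RPKM in WT and 55.2 and 50.9 in DD under Tg, a log2 difference of 0.84 against 1.65 in DMSO. KRTAP19-1 had 32.9 and 25.6 RPKM in WT and 551 and 27.7 in DD, so that 1 library carried its difference.

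**Figure D3:**
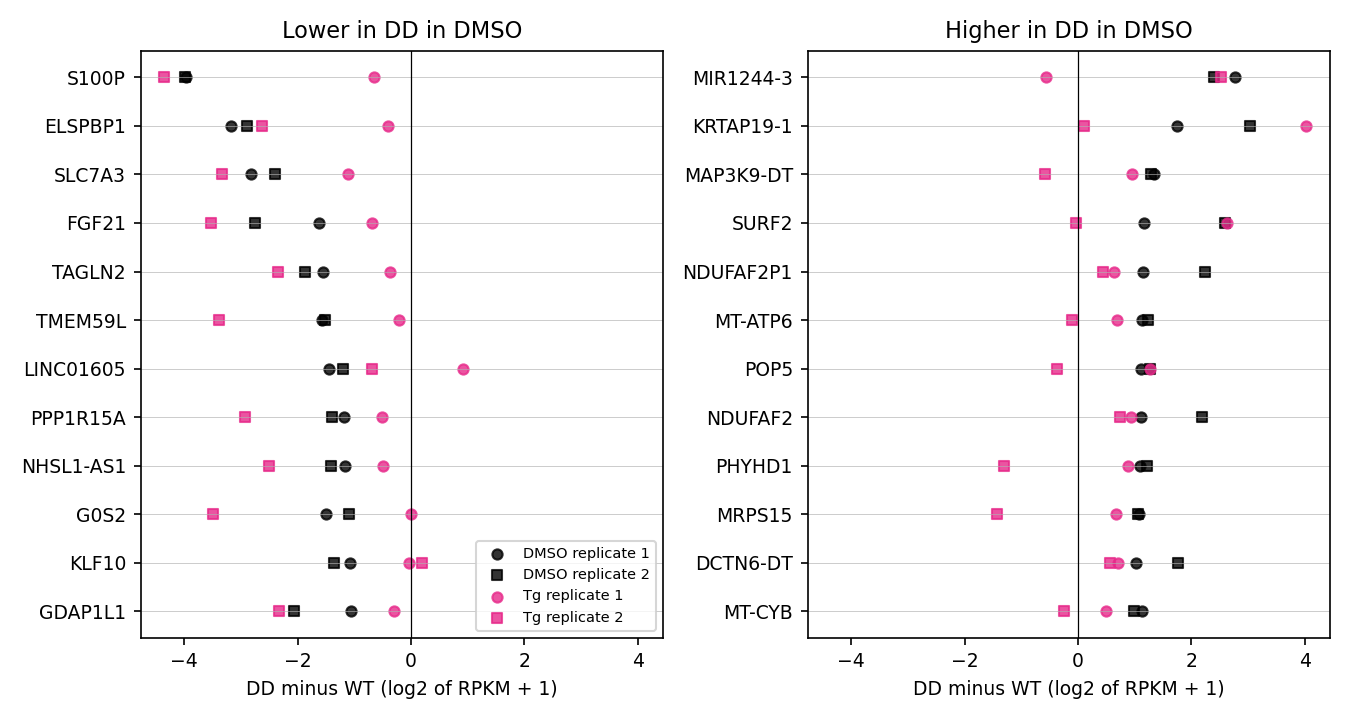
Difference of DD from WT, as log2(RPKM + 1), for the same 24 genes in DMSO (black, used to choose them) and in Tg (pink), replicate 1 as circles and replicate 2 as squares. On the left 9 of 12 genes have both pink points below 0, and the pink squares, from the library pair that holds the second DD Tg library, lie farthest out for most. On the right 4 of 12 genes have both pink points above 0.

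The DMSO and Tg comparisons share no library, and some genes had DD on 1 side of WT in all 4 pairs of libraries. They were picked after their values were seen, and the values carry no test. There were 960 genes higher (9.96%) and 388 lower (4.03%) in all 4 pairs, and at 1.5-fold or more in each pair 41 higher (0.425%) and 20 lower (0.208%). At 2-fold or more in each pair 2 genes were higher (0.0208%), the pseudogene MCF2L2P1 and 1 gene without a symbol, and 5 were lower (0.0519%): RBP7, PNPLA4, BEX1, SLC7A3 and PMAIP1. PMAIP1 had 89.3 and 26.4 RPKM in WT and 38.6 and 12.6 in DD in DMSO, and 128 and 53.4 in WT and 47.4 and 18.8 in DD in Tg, so that DD was lower within each of the 4 pairs while library numbers differed by more. HSPB8, a small heat shock protein, had 4.83 and 3.88 against 2.10 and 0.287 RPKM in DMSO and 4.62 and 6.09 against 1.38 and 0.164 in Tg. FLNC, the muscle filamin, had 2.87 and 4.25 against 1.38 and 0.442 in DMSO and 2.48 and 2.91 against 0.551 and 0.703 in Tg.

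Among the 41 higher genes were NACA, the alpha subunit of the complex that guards nascent chains on ribosomes, and its retrogene copy NACA2. NACA had 47.4 and 31.1 RPKM in WT and 74.4 and 91.5 in DD in DMSO, and 45.5 and 37.0 against 84.1 and 68.3 in Tg. PDCD5 had 33.8 and 23.8 against 60.2 and 76.7 in DMSO and 35.8 and 39.2 against 67.6 and 64.1 in Tg. ECI2, an enzyme of unsaturated fatty acid oxidation, had 1.87 and 1.60 against 4.72 and 4.60 in DMSO and 2.62 and 2.66 against 5.11 and 6.86 in Tg. NDUFAF2 and RPL7 are among the 41 as well, with the RPL7 pseudogenes RPL7P1 and RPL7P9, whose reads may be shared with the parent gene.

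More genes of the ISR lay below than above their WT level in DD cells without stress, and DDIT3 was placed the other way. The list of ISR transcription factors and feedback genes had 15 tested members, of which 4 lay below WT in both DD libraries (PPP1R15A, ATF5, GDF15, SESN2) and 1 above (DDIT3), where 4.7% of all genes lay below and 11.1% above. Relative to all genes, 8 were below the all-gene median in both replicate numbers and 1 above it, where 27.4% of all genes were on each side. The list median, relative to all genes, was −0.54 on the log2 scale, −0.22 in replicate 1 and −0.74 in replicate 2, and with 1 DMSO library left out it ran from −1.11 (without WT 1) to −0.11 (without WT 2). Under Tg the relative list median was 0.12 in replicate 1 and −1.57 in replicate 2, the pair that holds the second DD Tg library. ATF5, a transcription factor translated under eIF2 phosphorylation like ATF4, had 4.25 and 5.18 RPKM in WT and 1.59 and 1.11 in DD, a log2 difference of −1.29 ± 0.46 (SE; limma unadjusted p = 0.0202, adjusted p = 1.00). GDF15, a secreted stress cytokine, had 10.3 and 27.1 RPKM in WT and 5.24 and 8.80 in DD. In both, the 2 DD libraries in DMSO lay below the 2 WT libraries. DDIT3, which codes for the stress transcription factor CHOP, had 16.7 and 24.3 RPKM in WT and 33.5 and 41.8 in DD, a log2 difference of 0.86 ± 0.68 (SE). ATF4 itself had 268 and 258 RPKM in WT and 262 and 320 in DD, so its groups overlapped. None of these passed the test. The list was chosen with an earlier result on these libraries known and is not independent evidence of its direction.

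The genes for amino acid supply that ATF4 is known to drive leaned the same way with smaller differences. Of 13 enzymes of serine, asparagine and one-carbon metabolism, 8 were below the all-gene median in both replicate numbers and 1 above (27.4% of all genes on each side), with a relative list median of −0.22, which ran from −0.35 to −0.021 (without DD 2) with 1 DMSO library left out. MTHFD1L, a mitochondrial folate enzyme, had 13.7 and 9.90 RPKM in WT and 8.51 and 6.85 in DD, and SHMT2, the mitochondrial serine hydroxymethyltransferase, was the exception at 35.8 and 36.2 against 46.8 and 48.7. Of 20 cytosolic aminoacyl-tRNA synthetases, 9 were below and 1 above in both numbers, with a relative median of −0.19. AARS1, which charges alanine tRNA, had 22.6 and 21.9 RPKM in WT and 13.6 and 18.3 in DD. WARS1 and MARS1, for tryptophan and methionine, also had both DD libraries below both WT libraries. Without WT library 1 the synthetase median was 0.01. Of 12 amino acid transporters 4 were below and 1 above in both numbers, and the relative median was 0.06 in replicate 1 and −0.65 in replicate 2, so that this list's position came from 1 replicate number. SLC7A1, the main cationic transporter, was lower in both, at 5.15 and 4.84 RPKM in WT against 3.20 and 3.31 in DD.

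The upstream arm, eIF2 with its kinases, its exchange factor eIF2B and its phosphatases, had a list median on the other side of that of all genes. Of 15 tested members, 9 were above the all-gene median in both replicate numbers and 2 below (27.4% of all genes on each side), and 4 separated, all higher in DD (11.1% of all genes). EIF2S3, the gamma subunit of eIF2, had 23.4 and 12.8 RPKM in WT and 38.5 and 36.7 in DD, a log2 difference of 1.07 ± 0.70 (SE). EIF2S2, the beta subunit, had 66.1 and 25.6 against 73.7 and 77.3 RPKM, with WT 2 as the low library. EIF2B4 and EIF2B2 had 3.36 and 4.19, and 3.80 and 4.24, RPKM in WT against 4.83 and 8.53, and 4.50 and 8.86, in DD. The relative list median was 0.25, and without WT library 2 it was 0.03. EIF2AK4 (GCN2), the kinase that senses uncharged tRNA, was at 1.43 and 0.519 RPKM in WT and 1.67 and 0.755 in DD, differences that follow library number more than genotype.

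Other initiation factors showed no common direction. Among 13 eIF3 subunits none separated. In both numbers 4 were above and 5 below the all-gene median (27.4% of all genes on each side). The relative median was −0.22 in replicate 1 and 0.44 in replicate 2. EIF3I, the most abundant, had 247 and 248 RPKM in WT and 197 and 342 in DD, and EIF3K had 83.7 and 118 against 69.9 and 114. Among 14 cap-binding and eIF4 genes 1 separated higher and 3 lower (11.1% and 4.7% of all genes). EIF4EBP1, the cap-binding inhibitor 4E-BP1 and a known ATF4 target, had 731 and 1378 RPKM in WT and 610 and 613 in DD. EIF4B, a helper of the eIF4A helicase, had 7.39 and 3.03 in WT and 10.0 and 15.9 in DD. Of 19 writers, erasers and readers of m6A, the methyl mark on mRNA, 1 separated (RBM15, higher, 1.60 and 1.42 against 1.95 and 2.04 RPKM). METTL3, the catalytic writer, had 2.37 and 1.62 against 2.30 and 4.02 RPKM, and the eraser ALKBH5 had 4.20 and 3.55 against 5.51 and 3.99, with overlapping groups in both.

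Chaperones of the endoplasmic reticulum (ER) had a list median somewhat above that of all genes in unstressed DD cells. Of 21 tested ER chaperones and oxidoreductases 5 separated, all higher (11.1% of all genes), 7 were above and 2 below the all-gene median in both numbers (27.4% of all genes on each side), and the relative median was 0.16 and 0.17 in replicates 1 and 2, and 0.08 to 0.38 with 1 DMSO library left out. CANX, the calnexin chaperone of glycoproteins, had 31.1 and 13.2 RPKM in WT and 54.8 and 33.0 in DD, a log2 difference of 1.03 ± 0.78 (SE). PDIA4, a disulfide isomerase, had 24.3 and 26.9 RPKM in WT and 45.2 and 38.0 in DD, and MANF, a secreted ER stress protein, had 37.6 and 22.5 against 47.3 and 46.8. CALR and HYOU1 were the other 2 that separated. HSPA5 (BiP), the main ER chaperone, did not: it had 72.6 and 33.4 RPKM in WT and 125 and 33.2 in DD. Under Tg the list lay lower in DD, at a relative median of −0.49 and −0.83 in the 2 replicate numbers, and the difference between the treatments was not tested for the list. Of 25 genes of translocation and ER-associated degradation none separated, and the relative median was 0.23 and −0.12.

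Mitochondrially encoded mRNAs had the highest median of the lists. Of 13, 9 lay above WT in both DD libraries (11.1% of all genes did) and 1 below, and the relative list median was 0.63 on the log2 scale, 0.92 in replicate 1 and 0.55 in replicate 2, and 0.33 to 0.98 with 1 DMSO library left out. MT-ND4, a subunit of complex I, had 511 and 596 RPKM in WT and 1229 and 1187 in DD. MT-ND6, the one subunit mRNA copied from the other strand, had 224 and 147 RPKM in WT and 436 and 469 in DD. The RNA-Seq kit does not mark strand, so MT-ND6 reads cannot be told from reads of the opposite strand. MT-CO1 (3119 and 1856 against 3401 and 2011 RPKM), MT-ND3 and MT-ND4L overlapped, and MT-ATP8, at 11.3 and 10.7 against 9.44 and 5.95 RPKM, was the 1 gene placed lower. MT-ATP8 shares sequence with MT-ATP6, so how their reads were assigned bears on both. Mitochondrial reads other than the ribosomal RNAs made up 1.10% in each WT library, and 1.79% and 1.65% in DD. These transcripts come from 1 genome and 1 or few precursors, so they are not 13 separate observations. Under Tg the relative list median was 0.28 and 0.12.

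Nuclear genes for the same organelle gave smaller values. Of 72 mitochondrial ribosomal proteins 17 separated higher and none lower (11.1% and 4.7% of all genes), and 36 were above and 5 below the all-gene median in both numbers, with relative medians of 0.19 in each replicate number. MRPS33 had 12.7 and 12.1 RPKM in WT and 17.2 and 30.2 in DD, and MRPS25 had 2.00 and 3.50 against 3.53 and 12.3. Without DD library 2 the list median was 0.02. Of 37 nuclear-encoded respiratory chain genes 6 separated higher and 2 lower, with relative medians of 0.00 and 0.23. UQCRH, the hinge protein of complex III, had 286 and 321 RPKM in WT and 368 and 675 in DD, and COX7C, of complex IV, had 205 and 192 against 289 and 365. Of 81 cytosolic ribosomal proteins 13 separated higher and 2 lower, and the relative median was 0.11 and −0.07. RPS25, of the small subunit, had 289 and 577 RPKM in WT and 671 and 1033 in DD, and RPL7, which has many pseudogene copies, had 590 and 372 against 893 and 1361.

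**Figure D4:**
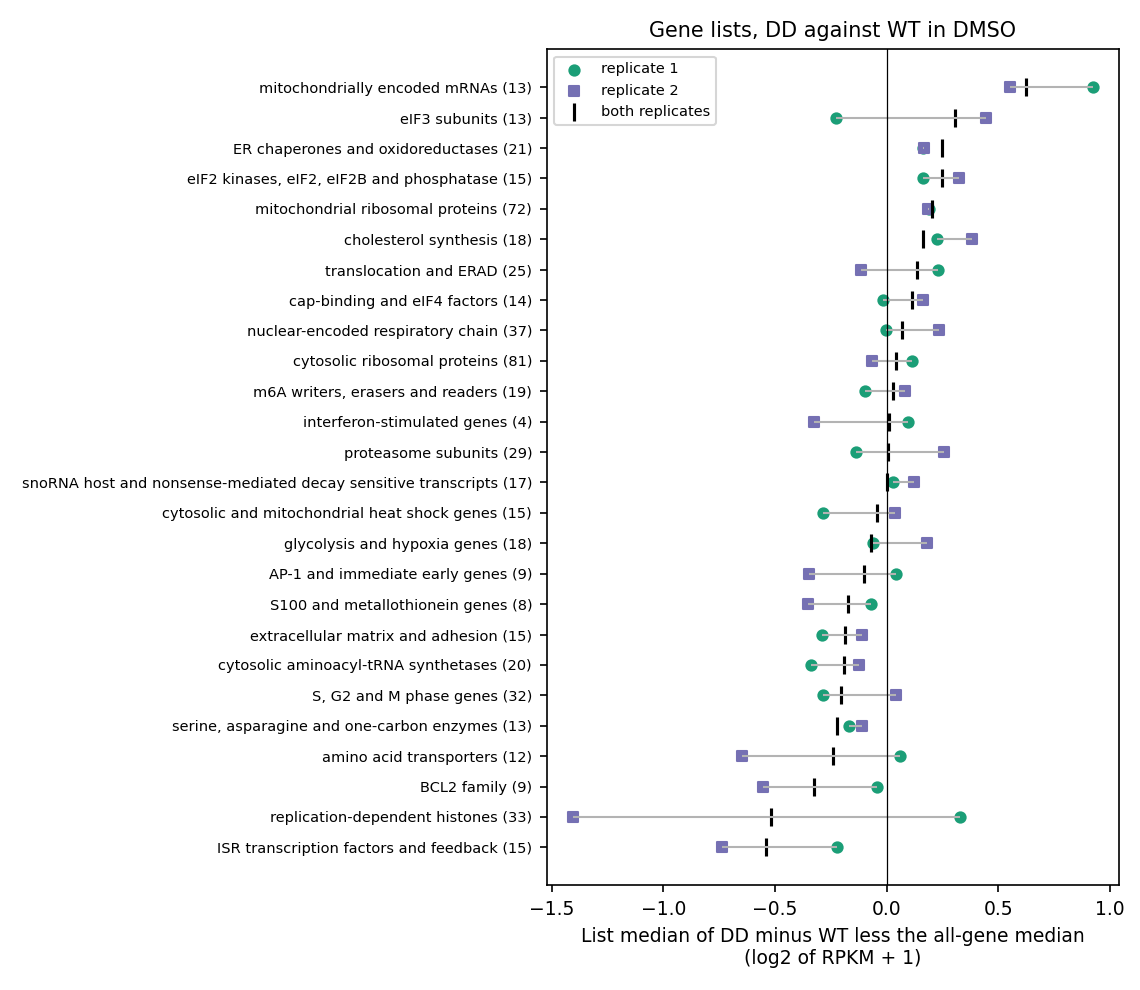
Median DD minus WT difference of each gene list in DMSO less the median of all genes, as log2(RPKM + 1), with the number of tested members in brackets. Circles are replicate 1, squares replicate 2 and black bars the value from both. The ISR and histone lists have the lowest bars and mitochondrial mRNAs the highest (0.63). Histones, amino acid transporters and eIF3 subunits are among the lists with the 2 replicates on opposite sides of 0.

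Lists on growth and survival gave mixed values. In 33 replication-dependent histone genes the 2 replicate numbers disagreed, with relative medians of 0.33 and −1.41, and 5 separated lower and 1 higher (4.7% and 11.1% of all genes). H4C5 had 79.6 and 116 RPKM in WT and 36.2 and 69.9 in DD. Histone mRNAs mostly lack poly(A) tails and the library kit selected polyadenylated RNA, so these are residual levels. Of 32 genes of S, G2 and M phase 2 separated higher and 1 lower (the same shares of all genes apply), with relative medians of −0.29 and 0.04. CCNB1, the mitotic cyclin B1, had 37.6 and 20.03 RPKM in WT and 47.5 and 39.2 in DD, and MCM3, of the replicative helicase, had 33.4 and 26.0 against 21.03 and 25.3.

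Cholesterol synthesis genes leaned higher in both replicate numbers. Of 18 genes 12 were above and none below the all-gene median in both numbers (27.4% of all genes on each side). Of the 18, 3 separated higher (11.1% of all genes did), and the relative medians were 0.22 and 0.38. FDFT1, squalene synthase, had 7.06 and 2.90 RPKM in WT and 9.99 and 10.1 in DD. DHCR7, a reductase of the pathway, had 3.82 and 4.91 RPKM in WT against 6.39 and 8.14 in DD. Of 9 BCL2 family genes none was above and 4 were below the median in both numbers. PMAIP1 (NOXA), a p53- and ATF4-responsive killer protein, had 89.3 and 26.4 RPKM in WT and 38.6 and 12.6 in DD, so it was lower within each number although the groups overlapped. BID, which links death receptors to mitochondria, had 9.19 and 9.13 against 5.57 and 7.09.

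Of 9 AP-1 and immediate early genes 1 separated higher and 2 lower (11.1% and 4.7% of all genes), with relative medians of 0.04 and −0.35. MYC was higher, at 6.12 and 4.73 RPKM in WT against 8.08 and 16.8 in DD. KLF10 and JUN were lower, JUN at 14.5 and 17.7 against 12.3 and 13.9. Of 8 S100 and metallothionein genes 1 separated higher and 2 lower (the same shares of all genes apply), with relative medians of −0.07 and −0.35. S100P and S100A11 were lower, S100A11 at 237 and 203 RPKM in WT against 144 and 89.2 in DD. MT2A was higher, at 8.61 and 9.56 against 12.4 and 14.1. Of 15 heat shock genes 2 separated higher and 1 lower (the same shares of all genes apply), with relative medians of −0.29 and 0.04. Those higher were the mitochondrial pair HSPE1 and HSPD1. HSPE1 had 6.84 and 9.76 RPKM in WT and 11.7 and 18.2 in DD, and HSPD1 had 57.4 and 25.2 against 62.5 and 58.6. BAG3 was lower, at 2.51 and 2.42 against 1.80 and 2.35. Of 15 extracellular matrix and adhesion genes 8 were below and 2 above the all-gene median in both numbers (27.4% of all genes on each side), with a relative median of −0.19. TIMP1, an inhibitor of matrix proteases, was lower at 116 and 177 RPKM against 80.1 and 76.1. Of 17 snoRNA hosts and transcripts known to be cleared by nonsense-mediated decay 7 separated higher and 1 lower (11.1% and 4.7% of all genes), led by SNHG6 (77.7 and 53.9 RPKM in WT, 121 and 296 in DD), but their relative median was 0.00. Proteasome (29 genes), glycolysis and hypoxia (18) and interferon genes (4) had relative medians of 0.01, −0.07 and 0.01. In each the replicate numbers had opposite signs: −0.14 and 0.26 for proteasome, −0.06 and 0.18 for glycolysis and hypoxia, and 0.09 and −0.33 for interferon genes. In cultures measured in bulk, fewer cells with a transcript and less of it per cell cannot be told apart.

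Other assays of the series were read for the 24 named genes. Subunit-Seq sets RNA held by the cap-binding part of eIF3d against input RNA, and its tables were normalised separately, so values are read within a table. The all-gene median of immunoprecipitate over input in DMSO, on the log2(RPKM + 1) scale, was 0.40 in replicate 1 and 1.49 in replicate 2. Of the 12 lower genes, 3 and 4 were above it, and of the 12 higher genes 5 and 1 were. Some lower genes were near 0 RPKM in these tables. ELSPBP1, SLC7A3, FGF21 and GDAP1L1 were under 1 RPKM in the DMSO input of both replicates, and S100P had 0.384 and 3.58. FGF21 had 0.374 in input and 0.141 in the immunoprecipitate of replicate 1, and 0 in both in replicate 2. GDAP1L1 had 0.0727 and 0.0820 in replicate 1. At such levels log2(RPKM + 1) draws the value toward 0, below either median, though SLC7A3 was above the median in both tables, at 0.80 and 1.55. The count of lower genes therefore mixes level with recovery. PPP1R15A was above the median in both, at 1.52 and 3.10, and NDUFAF2 below it in both, at −0.13 and −0.78. The S100P input values resembled its RNA-Seq values in DD (1.63 and 3.77) more than in WT (40.02 and 74.3). Other genes were placed the other way. RBP7 had 5.57 and 5.73 RPKM in input, PNPLA4 3.68 and 4.46, TAGLN2 170 and 88.97, and LINC01605 25.3 and 50.9. Separate normalisation limits such a comparison, and whether WT or DD cells had the unusual level was not tested. The deposited m6A site lists for DMSO hold 3000 sites in WT and 1796 in DD, with no replicates and unknown depth. A WT site lay in 9.51% and a DD site in 4.55% of the 6837 tested genes with a position and strand. S100P and G0S2 held a WT site and no DD site, of 9 lower genes that could be placed. POP5 held a DD site and no WT site, of 6 higher genes. EIF3D had 4 WT sites and 0 DD sites. S100P and G0S2 RNA was also lower in DD, and the part of RNA level in the site calls was not tested.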

How the data were processed

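The authors deposited RPKM for RNA-Seq and for Subunit-Seq, reads scaled by gene length and by the reads of a library. The build GRCh38 and the tools STAR, BWA, cutadapt and DESeq2 stand without roles in the submitters' processing notes, and the counter and annotation are not given in the sources used here. Per the labels' protocols, cells were lysed with detergent and polyadenylated RNA was taken for RNA-Seq. The deposited m6A files list site positions with strand, without score or coverage.

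RPKM steps gave whole reads (within 0.02 for every value of 22283 genes above 0 in at least 3 libraries). Symbols were found for 58252 genes (99.2%). Values were analysed as log2(RPKM + 1), which understates the change of low genes, for genes with a mean of at least 1 RPKM. Models in limma 3.58.1 (R 4.3.3; eBayes with a trend) used all 8 libraries in 4 groups, two-sided, with Benjamini-Hochberg adjustment and a threshold of 0.05. A list's median is given less the median of all genes.

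Named genes were EIF3D; the 12 higher and 12 lower genes with a mean of at least 5 RPKM, separate groups and the largest smaller within-replicate difference; the 5 smallest p; per list up to 4 separated members by that measure, or else the 2 most expressed; and always ATF4, DDIT3, HSPA5, EIF2AK4, ALKBH5, METTL3, JUN, S100P, SLC7A3 and RBP7. The text prints a part of these, and CHAC1, CALR, SESN2, PMAIP1, MT-CO1, MT-ND3, MT-ND4L, MT-ATP8, VAMP8, CPNE1, COL1A1, BEX1, HSPB8, FLNC, NACA, NACA2, PDCD5, ECI2 and MCF2L2P1 were chosen after their values were seen. Members and the 28 lists were chosen with earlier results of these data known. Code was tested on simulated data.

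Alternatives were the replicate number as a block, DMSO libraries only, voom on reads, a pseudocount of 0.1, no filter or a mean of 5 RPKM, median-ratio sizes, scaling without mitochondrial genes, a 1.5-fold threshold and each library left out. Leaving out libraries for the count of separate groups was added after seeing the data.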

Additional observations from a re-analysis of the deposited data

Results flagged for a closer look

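PDIA4 and MCM3 had a DD minus WT difference of one sign in both DMSO pairs and of the opposite sign in both Tg pairs, with separate groups in each treatment. PDIA4, the ER disulfide isomerase, had 24.3 and 26.9 RPKM in WT and 45.2 and 38.0 in DD without stress, and 36.4 and 80.5 in WT and 34.1 and 26.5 in DD under Tg. The difference between the treatments was −1.51 ± 1.02 (SE) on the log2 scale. MCM3, of the replicative helicase, had 33.4 and 26.0 RPKM in WT and 21.03 and 25.3 in DD without stress, and 23.7 and 20.2 in WT and 31.3 and 33.7 in DD under Tg, a difference of 0.89 ± 0.92 (SE). Neither passed limma's interaction test (adjusted p = 1.00 for each), which called 0 of 9637 genes with 21 at an unadjusted p under 0.05 (0.218%). Both were compared among the named genes alone, and groups of 2 libraries allow no check for outlying libraries.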

How the results depend on the processing

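The call count of 0 held with a replicate block (227 genes at an unadjusted p under 0.05), with DMSO libraries only (71, or 651 with the block), and under the other scalings, filters and pseudocount (18 to 544). Without DD Tg replicate 2, the model with the block called 3 genes, all lower in DD: S100P (adjusted p = 0.0246), SLC7A3 and RBP7 (0.041 each). Leaving out 1 library without the block called 0 each time (55 to 174 at an unadjusted p under 0.05). For the pairing, the difference of library 2 from library 1 had an r of 0.743 across genes between WT and DD in DMSO, and from 0.134 to 0.864 over all pairs of groups; the labels do not say that a number marks a shared batch.

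Genes 2-fold apart in both numbers went from 85 to 227 with a pseudocount of 0.1, to 41 with a mean of 5 RPKM and to 457 at 1.5-fold. Separate groups went from 1518 to 4493 with no filter, to 589 with a mean of 5 RPKM, and to between 4908 and 6496 with 1 DMSO library left out, where 3 libraries separate more easily than 4 by construction. The all-gene median went from 0.13 to 0.33 without WT DMSO replicate 1 and to −0.029 without WT DMSO replicate 2, the range over libraries left out, and the cause was not tested. With median-ratio sizes EIF3I turned to −0.12 and ATF4 to −0.042. With 1 library left out, signs turned within the ranges of EIF3D (−0.86 to 0.15), EIF3I (−0.33 to 0.46), EIF3K (−0.50 to 0.20), ATF4 (−0.0051 to 0.28), HSPA5 (−0.56 to 1.32) and EIF2AK4 (−0.17 to 0.51), all of which had overlapping groups. The 24 genes of the higher and lower sets kept their sign in all 432 values. List medians took the opposite sign in 16 of 280 values under other settings and in 34 of 224 with 1 library left out. The histone median was 0.33 without WT DMSO replicate 2, and that of the BCL2 family 0.14. Depth limits the low genes: 3 reads over 1 kb are 0.308 to 0.665 RPKM in the 4 libraries.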

Other observations

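The position of genes was also read, a description chosen after the data were seen. Of 146 windows of 20 Mb with at least 20 genes, 42 had a median above and 32 below the all-gene median in both replicate numbers. Of single genes 27.4% were on each side in both numbers, but a median over many genes is a different measure. No test was run on the windows, and those printed are the extremes. The window with the highest smaller value was the first 20 Mb of chromosome 3 (64 genes; 0.21 and 0.29 in DMSO, 0.20 and 0.41 in Tg, on the log2 scale relative to all genes), and the lowest was 80 to 100 Mb of chromosome 15 (45 genes; −0.28 and −0.28, and −0.17 and −0.22 in Tg). Over the whole of chromosome 3 (541 genes) the medians were 0.12 and 0.19 in DMSO and 0.07 and 0.30 in Tg.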
